A study of Mus musculus with 10 samples.

Results

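Marrow adipocyte genes were examined as a set of 10, namely Adipoq, Fabp4, Plin1, Plin4, Lep, Cfd, Cidec, Lpl, Pparg and Lepr. They were taken by gene name from 22548 genes in the count table, and all 10 were found there and passed the filter on low counts. RNA was sequenced from osteocyte fractions of 10 male C57BL/6 mice aged 8 weeks. In 5 of them (MM, mice 6 to 10) murine myeloma vk12598 cells had been injected into the femur, and the other 5 (No MM, mice 1 to 5) received no myeloma cells. The methods of the paper state that control mice were given PBS of equal volume by injection. Each library came from 1 mouse, and the labels name no engineered allele or further agent. The fraction was the cell pellet left by repeated collagenase and EDTA digestion of trabecular bone pieces from which marrow had been removed, so it was enriched by dissection and digestion rather than sorted, and the comparison asked how the bone cell transcriptome differed when myeloma was present.

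Adipocytes of the bone marrow store triglyceride in a single large droplet and arise from stromal cells that express the leptin receptor. Their differentiation depends on the nuclear receptor PPARgamma, encoded by Pparg, which switches on genes for droplet coat proteins, fatty acid handling and secreted adipokines. Marrow fat lies against trabecular bone and is known to be altered by age, diet and marrow tumours. Several of the genes are not restricted to fat: Fabp4 is also made by capillary endothelium and macrophages, Lpl by muscle and macrophages, Pparg by macrophages and osteoclast precursors, and Lepr by the reticular stromal cells that line marrow sinusoids.

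The sequences just upstream of the start site are given for the genes whose levels moved together or apart from mouse to mouse below. Each is the 250 bases before a RefSeq start site of GRCm38.p6, written 5′ to 3′ on the strand of the gene. Capitals mark matches on either strand. The letters searched were TATAAA for the TATA box that places the polymerase and CCAAT for the box named after it. AGGTCA was searched as the half-site of nuclear receptors, together with its direct repeat AGGTCANAGGTCA, which overlaps it, and TTGCGCAA as a palindrome bound by C/EBP proteins. The first 3 are Plin1, Cidec and Cfd, which moved closely together; Adipoq followed them in part, Lep was the least abundant and Pparg ran apart from all of these.
Plin1, chr7:79732777-79733026, minus strand: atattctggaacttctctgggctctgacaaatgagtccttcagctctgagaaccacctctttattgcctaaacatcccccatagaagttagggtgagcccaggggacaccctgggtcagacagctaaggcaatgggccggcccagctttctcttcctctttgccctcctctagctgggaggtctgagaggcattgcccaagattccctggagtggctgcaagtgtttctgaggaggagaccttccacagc
Cidec, chr6:113435761-113436010, minus strand: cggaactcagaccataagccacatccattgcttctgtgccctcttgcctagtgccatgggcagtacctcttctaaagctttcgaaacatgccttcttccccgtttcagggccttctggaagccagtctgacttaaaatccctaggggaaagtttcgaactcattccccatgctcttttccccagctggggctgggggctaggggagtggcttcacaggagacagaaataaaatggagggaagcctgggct
Cfd, chr10:79890603-79890852, plus strand: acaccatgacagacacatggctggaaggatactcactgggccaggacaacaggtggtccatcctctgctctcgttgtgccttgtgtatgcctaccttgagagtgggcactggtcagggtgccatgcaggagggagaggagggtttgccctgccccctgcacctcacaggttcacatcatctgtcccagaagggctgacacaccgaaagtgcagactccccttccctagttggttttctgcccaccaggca
Adipoq, chr16:23146286-23146535, plus strand: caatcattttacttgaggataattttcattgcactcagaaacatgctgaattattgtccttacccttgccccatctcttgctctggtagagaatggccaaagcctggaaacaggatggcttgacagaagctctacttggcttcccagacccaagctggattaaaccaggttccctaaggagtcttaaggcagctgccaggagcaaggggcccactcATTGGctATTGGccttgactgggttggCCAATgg
Lep, chr6:29059971-29060220, plus strand: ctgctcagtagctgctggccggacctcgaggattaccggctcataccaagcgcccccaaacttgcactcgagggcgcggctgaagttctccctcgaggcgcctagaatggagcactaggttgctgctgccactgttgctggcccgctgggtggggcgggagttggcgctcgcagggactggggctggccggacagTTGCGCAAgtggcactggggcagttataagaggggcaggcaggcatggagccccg
Pparg, chr6:115421816-115422065, plus strand, the most downstream of its 3 start sites: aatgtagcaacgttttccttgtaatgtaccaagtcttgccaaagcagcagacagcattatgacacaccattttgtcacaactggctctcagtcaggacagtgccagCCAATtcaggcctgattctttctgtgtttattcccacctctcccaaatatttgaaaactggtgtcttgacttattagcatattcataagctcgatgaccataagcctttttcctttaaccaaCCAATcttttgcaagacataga

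The windows of Plin1, Cidec and Cfd held none of these letters, which says only that they are absent from these 250 bases. The Adipoq window held CCAAT, on either strand, 34, 27 and 7 bases before the start site, and the printed Pparg window held it 144 and 22 bases before. The windows of the upstream Pparg start sites, not printed, held AGGTCA 28 bases before the most upstream start and 9 before the middle start. The middle window also held the TATA letters at 29 and CCAAT at 83 bases, both on the other strand. The Lep window held TTGCGCAA 55 bases before the start. Over all 32851 windows of this length, the CCAAT box was found in 33.8%, the TATA box in 12.4%, the half-site in 14%, the C/EBP palindrome in 0.164% and the direct repeat in 0.0335%. RefSeq windows were found for 8 of the 10 genes, without Fabp4 and Lpl. A match is a description of letters and not a binding site.

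The libraries held 31099174 to 39466332 counts, so that 3 counts corresponded to 0.0709 to 0.114 CPM, the count scaled to a common library depth with the TMM factors of edgeR. Markers of the labelled cell type were present in every library: Dmp1 lay between 111.7 and 884.5 CPM and Sost between 68.3 and 994.9 CPM over the 10 libraries. Libraries No MM 3 and No MM 4 stood apart. Immunoglobulin genes took 26.6% and 29.0% of their counts against 0.637% to 3.86% elsewhere, and the summed osteoblast markers were 4143 and 2914 CPM against 14421 to 50684. Values that rest on these libraries are therefore given with and without them.

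None of the 10 genes differed between MM and No MM beyond the spread between mice. At an unadjusted p under 0.05, edgeR's quasi-likelihood test named 0 of the 10, where 14.1% of 16186 tested genes passed (3.81% higher and 10.3% lower in MM). At an adjusted p under 0.05 (Benjamini-Hochberg over all tested genes), edgeR called 0 of the 10 against a background of 0%. DESeq2 also named 0 of the 10 at either threshold, against 14% of 22438 genes unadjusted and 1.34% of the 16768 with an adjusted p. Without No MM 3 and No MM 4, edgeR again named 0 of the 10 unadjusted, where the background was 5.88%. The 5 MM and 5 No MM values overlapped for every one of the 10, where 1.41% of all tested genes did not overlap. The median log2 fold change of MM over No MM was 0.40 over the 10 genes, 9 higher and 1 lower in MM, beside −0.03 over all tested genes. Without No MM 3 and No MM 4 it was 0.12, with 6 genes higher, beside −0.02. With 1 mouse left out, at most 1 of the 10 had an unadjusted p under 0.05 by edgeR, which was Lpl without No MM 2 or MM 10 and Pparg without No MM 5 or MM 8. Without MM 6 the direction turned for Adipoq (−0.11), Plin1 (−0.27), Plin4 (−0.11), Cfd (−1.06) and Cidec (−0.058). In RNA from whole fractions, a change in the number of adipocytes and a change in RNA per adipocyte cannot be told apart.

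**Figure D1:**
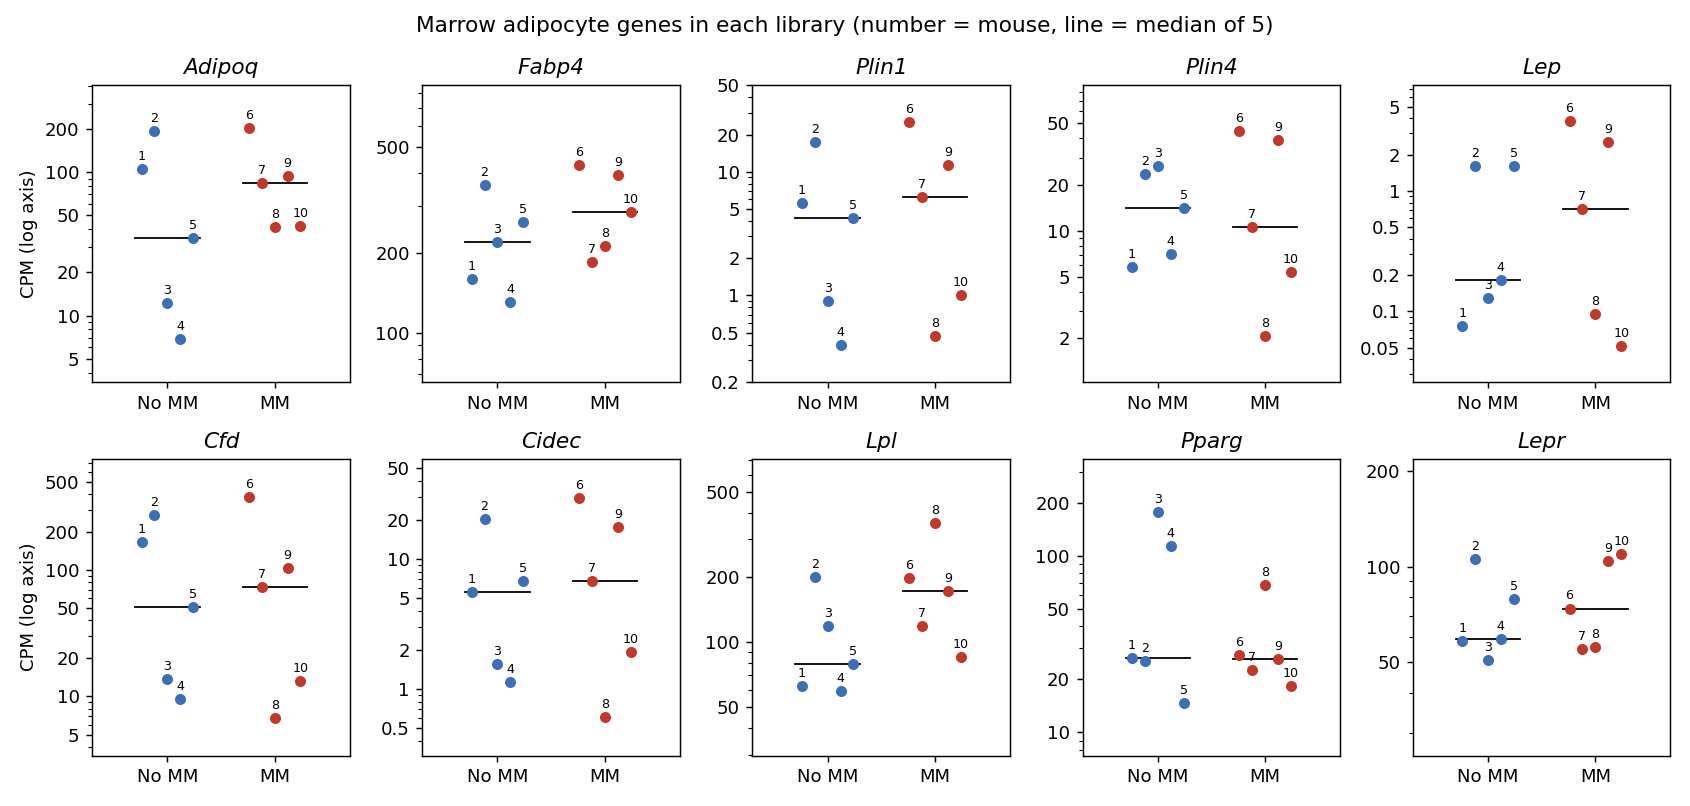
Level of each gene in CPM (log axis) in the 5 No MM libraries (blue) and the 5 MM libraries (red), each point numbered by mouse, with the group median as a line. The groups overlap in every panel, while Plin1, Cidec and Cfd span 48.3-fold to 63.1-fold from the lowest to the highest library.

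Among the adipokines, Adipoq encodes adiponectin, a hormone secreted almost entirely by fat cells (ENSMUSG00000022878, chromosome 16, 23146536 to 23158028, plus strand). Positions here and below are those of the deposited table, whose build is not given in the sources used here and which overlap the same genes of GENCODE M21 (GRCm38). Its level in No MM mice 1 to 5 was 104.4, 193.4, 12.1, 6.90 and 34.6 CPM, and in MM mice 6 to 10 it was 202.6, 83.8, 41.5, 94.1 and 42.0 CPM. The MM libraries all lay inside or just above the No MM range, and the lowest values were those of No MM 3 and No MM 4. The means were 70.3 ± 79.0 CPM in No MM and 92.8 ± 65.9 CPM in MM (SD, n = 5 each). MM over No MM gave a log2 fold change of 0.40 (standard error, SE, 0.81, 95% interval −1.39 to 2.19, edgeR adjusted p = 0.842), and the exact two-sided permutation test on log2 CPM gave p = 0.278, where the smallest it can give is 0.00794. Leaving out No MM 3 and No MM 4 turned it to −0.27 (95% interval −1.69 to 1.14).

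Cfd encodes adipsin, the complement factor D protease that activates the alternative pathway (ENSMUSG00000061780, chromosome 10, 79890853 to 79892656, plus strand). Its 5 No MM values were 168.0, 271.5, 13.8, 9.47 and 50.6 CPM, and its 5 MM values were 380.5, 72.9, 6.81, 103.7 and 13.2 CPM. Mouse MM 6 had the highest level and mouse MM 8 the lowest, so the MM group alone covered the full 55.9-fold range. The means were 102.7 ± 114 CPM and 115.4 ± 154 CPM (SD, n = 5 each). The fitted difference was 0.17 in log2 (SE 1.11, 95% interval −2.26 to 2.60, edgeR adjusted p = 0.956, exact permutation p = 0.968), and −0.52 without No MM 3 and No MM 4.

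Lep encodes leptin, the satiety hormone of fat (ENSMUSG00000059201, chromosome 6, 29060220 to 29073877, plus strand). It was the least abundant of the 10, with 2, 57, 4, 5 and 66 counts in No MM mice 1 to 5 and 146, 26, 4, 92 and 2 counts in MM mice 6 to 10. In No MM 1 and MM 10 the count lay under the floor of 3, whereas MM 6 reached 3.78 CPM and MM 9 2.54 CPM. The log2 fold change came to 0.96 (SE 1.13, 95% interval −1.53 to 3.45, edgeR adjusted p = 0.711, exact permutation p = 0.675), 0.36 without No MM 3 and No MM 4, and at these counts it could not be told from no difference.

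Plin1 encodes perilipin 1, the coat protein of the large droplet that controls access of lipases (ENSMUSG00000030546, chromosome 7, 79721164 to 79732776, minus strand). Its 5 No MM values were 5.56, 17.4, 0.905, 0.399 and 4.26 CPM, and its 5 MM values were 25.2, 6.22, 0.473, 11.3 and 1.01 CPM. Low libraries occurred in both groups, No MM 3 and No MM 4 on one side and MM 8 and MM 10 on the other. The fit put MM over No MM at 0.63 in log2 (SE 1.10, 95% interval −1.78 to 3.04, edgeR adjusted p = 0.813, exact permutation p = 0.698), and −0.05 without No MM 3 and No MM 4.

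Cidec, whose product fuses small droplets into large ones (ENSMUSG00000030278, chromosome 6, 113424634 to 113435760, minus strand), gave 5.56, 20.3, 1.55, 1.13 and 6.81 CPM in No MM and 29.7, 6.84, 0.614, 17.8 and 1.93 CPM in MM. The order of mice was nearly that of Plin1, with MM 6 and No MM 2 at the top and MM 8 at the bottom. The log2 ratio of MM to No MM came to 0.69 (SE 0.99, 95% interval −1.50 to 2.87, edgeR adjusted p = 0.773, exact permutation p = 0.762), and 0.05 without No MM 3 and No MM 4.

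Plin4, a perilipin of small nascent droplets that muscle also makes (ENSMUSG00000002831, chromosome 17, 56100591 to 56109803, minus strand), gave 5.83, 23.5, 26.4, 7.11 and 14.0 CPM in No MM and 44.5, 10.6, 2.08, 39.1 and 5.36 CPM in MM. Unlike Plin1, it was the highest of the No MM group in No MM 3. MM over No MM gave a log2 fold change of 0.40 (SE 0.76, 95% interval −1.27 to 2.07, edgeR adjusted p = 0.829, exact permutation p = 0.889), and 0.48 without No MM 3 and No MM 4. Its exons share 17 bases with those of Hdgfl2 on the opposite strand in GENCODE M21, and no other member of the 10 shared exon bases with an annotated neighbour.

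Among the genes of fatty acid handling, Fabp4 encodes the intracellular fatty acid carrier aP2 (ENSMUSG00000062515, chromosome 3, 10204347 to 10208576, minus strand). Its 5 No MM values were 159.5, 361.1, 220.4, 130.6 and 261.8 CPM, and its 5 MM values were 428.8, 185.4, 212.5, 391.3 and 284.5 CPM. No library was low: the whole range was 3.28-fold, and libraries in which Plin1 was near 1 CPM or under it still had 130.6 to 284.5 CPM of Fabp4. The fitted difference was 0.41 in log2 (SE 0.33, 95% interval −0.31 to 1.12, edgeR adjusted p = 0.577, exact permutation p = 0.262), and 0.19 without No MM 3 and No MM 4.

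Lpl encodes lipoprotein lipase, which frees fatty acids from circulating triglyceride (ENSMUSG00000015568, chromosome 8, 68880491 to 68907448, plus strand). It gave 62.4, 201.4, 118.8, 59.3 and 79.5 CPM in No MM and 199.5, 119.3, 356.0, 172.7 and 84.8 CPM in MM. The highest level was in MM 8, the library with the lowest Cidec and Cfd. The means were 104.3 ± 59.2 CPM and 186.4 ± 105 CPM (SD, n = 5 each). Its log2 fold change of 0.84 (SE 0.44) had the smallest p of the 10 (95% interval −0.12 to 1.80, edgeR unadjusted p = 0.0814, adjusted p = 0.403, exact permutation p = 0.127). It stayed positive without any 1 mouse, between 0.47 and 1.21, and was 0.68 without No MM 3 and No MM 4.

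Pparg, the master transcription factor of adipogenesis (ENSMUSG00000000440, chromosome 6, 115361221 to 115490401, plus strand), was the only gene of the 10 with a lower mean in MM. Its 5 No MM values were 26.6, 25.5, 178.3, 114.0 and 14.8 CPM, and its 5 MM values were 27.4, 22.5, 68.3, 26.2 and 18.4 CPM. The high libraries were No MM 3, No MM 4 and MM 8, which were among the lowest for Plin1, Cidec and Cfd, and the remaining 7 lay between 14.8 and 27.4 CPM. MM over No MM gave a log2 fold change of −1.14 (SE 0.67, 95% interval −2.62 to 0.34, edgeR adjusted p = 0.45, exact permutation p = 0.397). Without No MM 3 and No MM 4 it turned to 0.52 (95% interval −0.45 to 1.49).

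Lepr, the leptin receptor and a marker of the stromal precursors (ENSMUSG00000057722, chromosome 4, 101717404 to 101815352, plus strand), was the steadiest. It gave 58.4, 105.4, 50.9, 59.0 and 79.1 CPM in No MM and 73.9, 55.2, 55.9, 103.9 and 109.4 CPM in MM, a range of 2.15-fold. The fit put MM over No MM at 0.17 in log2 (SE 0.26, 95% interval −0.41 to 0.76, edgeR adjusted p = 0.783, exact permutation p = 0.611), the narrowest interval of the 10, and −0.04 without No MM 3 and No MM 4.

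**Figure D2:**
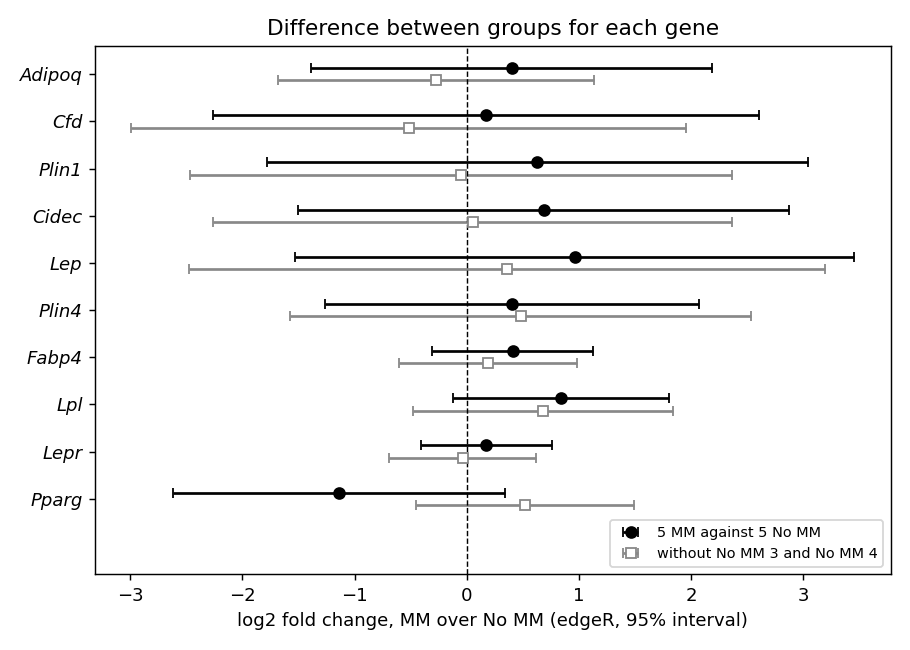
Log2 fold change of MM over No MM with its 95% interval from edgeR, for all 10 libraries (filled circles) and without No MM 3 and No MM 4 (open squares). Every interval crosses 0; those of Plin1, Cfd, Cidec and Lep are wide, and Pparg moves from −1.14 to 0.52.

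Per kilobase of gene length, as a median over the 10 libraries, Fabp4 was the most abundant at 378.5 CPM per kb, followed by Cfd at 66.9, Adipoq at 48.7 and Lpl at 28.9 CPM per kb. Pparg at 14.2 and Lepr at 12.0 CPM per kb came next, then Cidec at 3.60, Plin1 at 2.56 and Plin4 at 2.14 CPM per kb, and Lep at 0.136 CPM per kb. The order was the same in all 10 libraries for 3 neighbouring pairs, Fabp4 over Cfd, Cidec over Plin1 and Plin4 over Lep. Other neighbours changed places: Pparg exceeded Lepr in 6 of 10 libraries and Plin1 exceeded Plin4 in 4 of 10, so these pairs were not separated beyond their spread.

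The 10 genes did not vary as a single set from mouse to mouse. The SD of log2 CPM over the 10 libraries was 2.11 for Plin1, 2.11 for Cfd, 1.98 for Lep, 1.88 for Cidec, 1.60 for Adipoq and 1.41 for Plin4, whereas its median over all tested genes was 0.51. Fabp4 at 0.57 and Lepr at 0.43 lay close to that median. Mouse MM 6 had the highest value for 7 of the 10 genes, and No MM 4 the lowest for 4. As a label, marrow adipocyte genes thus covered genes that spanned 48.3-fold to 63.1-fold (Plin1, Cidec, Cfd) and genes that spanned 3.28-fold (Fabp4) and 2.15-fold (Lepr) in the same libraries.

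**Figure D3:**
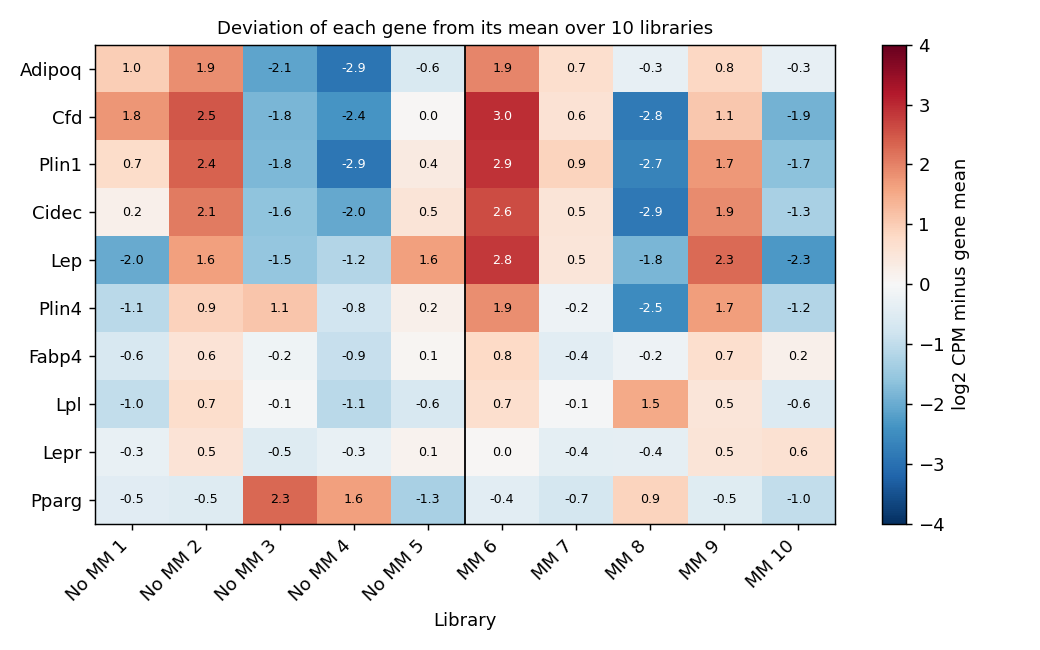
Log2 CPM of each gene minus its mean over the 10 libraries, with genes as rows and libraries as columns (No MM left of the line, MM right of it). Adipoq, Cfd, Plin1 and Cidec are high together in No MM 2 and MM 6 and low together in No MM 3 and No MM 4, while Pparg is highest in No MM 3.

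Of the 9 other genes, 3 followed Adipoq across the 10 mice, by correlation of log2 CPM with permutation p-values adjusted over the 9 relations. The share of all tested genes that would pass the same test was not computed, so this count has no background beside it. Many genes outside the 10 lay nearer to Adipoq in pattern than these 3 did, as given below. For Plin1, Pearson's r was 0.869 (permutation p = 0.00101, adjusted 0.00864) and Spearman's rho 0.903 (permutation p = 0.00084, adjusted 0.00756). For Cfd, r was 0.848 (permutation p = 0.00192, adjusted 0.00864) and rho 0.867 (permutation p = 0.00214, adjusted 0.00963). For Cidec, r was 0.796 (permutation p = 0.0059, adjusted 0.0177) and rho 0.806 (permutation p = 0.00714, adjusted 0.0214). The samples farthest from the median of Adipoq were No MM 3 and No MM 4, and without them r was 0.843 for Plin1, 0.878 for Cfd and 0.783 for Cidec. Over those 8 libraries the adjusted permutation p was 0.0388 for Plin1, 0.0388 for Cfd and 0.0727 for Cidec. All genes of a library share its scaling factor.

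The other 6 did not pass. Pparg had r = −0.696 (permutation p = 0.0269, adjusted 0.0605) but rho = −0.261 (permutation p = 0.473, adjusted 0.473), and without No MM 3 and No MM 4 r was 0.043, so its relation rested on those libraries. Fabp4 had r = 0.638 (permutation p = 0.0465, adjusted 0.0837) and rho 0.564 (permutation p = 0.0946, adjusted 0.213), with r = 0.425 without them. For Lep, r was 0.557 (permutation p = 0.0977, adjusted 0.147) with rho 0.358 (permutation p = 0.315, adjusted 0.371), and r was 0.518 without them. Lepr gave r = 0.440 (permutation p = 0.199, adjusted 0.231), rho = 0.345 (permutation p = 0.33, adjusted 0.371) and r = 0.112 without them. Lpl gave r = 0.440 (permutation p = 0.205, adjusted 0.231), rho = 0.479 (permutation p = 0.166, adjusted 0.299) and r = 0.230 without them. Plin4 gave r = 0.327 (permutation p = 0.354, adjusted 0.354), rho = 0.358 (permutation p = 0.312, adjusted 0.371) and r = 0.659 without them.

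Ratios of counts per kilobase within a library, which do not depend on library scaling, were lowest for Plin1, Cidec and Cfd over Adipoq in 2 MM mice. The droplet gene Plin4 was not among the ratios computed. Plin4 was 2.08 CPM beside 41.5 CPM of Adipoq in MM 8 and 5.36 CPM beside 42.0 CPM in MM 10. In No MM 1 it was 5.83 CPM beside 104.4 CPM. Plin1 over Adipoq was 0.00768 in MM 8 and 0.0163 in MM 10 and lay between 0.0359 and 0.0839 in the other 8 libraries. Cfd over Adipoq was 0.229 and 0.440 in the same mice and 1.22 to 2.63 elsewhere. Cidec over Adipoq was likewise lowest in MM 8 (0.0111) and MM 10 (0.0345), with No MM 1 next (0.0400). Of the Plin1 and Adipoq counts together, Plin1 made up 1.13% in MM 8 (20 of its counts beside 1757 of Adipoq, 95% Wilson interval 0.730% to 1.73%) and 2.36% in MM 10 (1.73% to 3.21%), against 5.06% in No MM 1 (4.31% to 5.92%) and 11.1% in MM 6 (10.4% to 11.7%), where the intervals cover counting error only. For Plin1 and Cidec over Adipoq, 2 of 5 MM mice lay below every No MM mouse. Cfd over Adipoq was 1.59 to 2.25 in No MM, and 4 of 5 MM mice lay below that range and 1 (MM 6) above it, with medians of 1.97 in No MM and 1.22 in MM. An exact two-sided permutation test on the log2 ratio, added after the values were seen, gave p = 0.119 for Cfd, 0.333 for Cidec and 0.421 for Plin1, each 0.505 when adjusted over the 6 ratios computed.

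Adipoq over Lepr ran from 0.501 in No MM 4 to 11.8 in MM 6, and its median was 1.88 in No MM and 3.88 in MM (exact permutation p = 0.333, adjusted 0.505). Pparg over Adipoq was 10.2 and 11.5 in No MM 3 and No MM 4, 1.15 in MM 8 and 0.0919 to 0.306 in the remaining 7 libraries. Lpl over Adipoq was high in the same 3 libraries, at 3.07 in No MM 3, 2.70 in No MM 4 and 2.69 in MM 8, against 0.187 to 0.720 elsewhere.

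**Figure D4:**
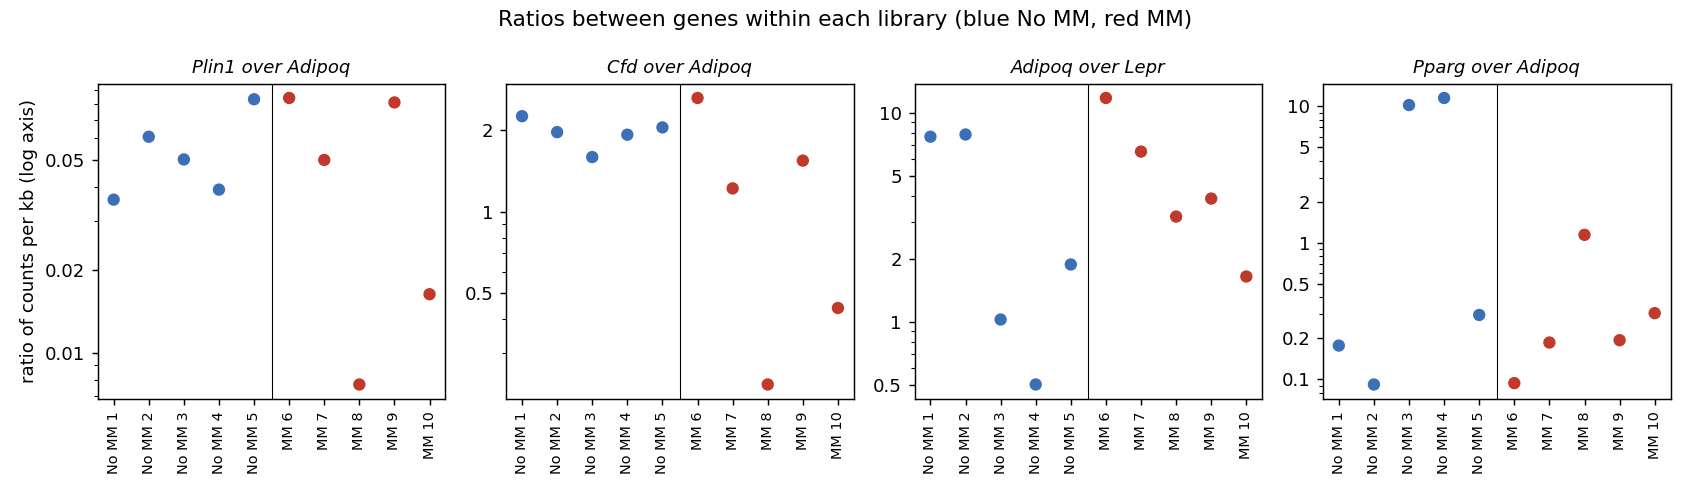
Ratios of counts per kilobase between pairs of genes in each library (log axes; blue No MM, red MM). Plin1 over Adipoq and Cfd over Adipoq are lowest in MM 8 and MM 10, and Pparg over Adipoq is highest in No MM 3 and No MM 4.

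The search for genes of like pattern used the root mean square difference of centred log2 CPM over the 10 libraries, among genes with a mean of at least 1 CPM. Nearest to Adipoq were Igkv10-96 at 0.504, Ighv1-34, Ighv1-72, Rspo2, Psma8, Fam69c, Lipc and Tenm4 at 0.686, none of them among the 10. From Adipoq, Plin1 stood at rank 514 of 14539, Cfd at rank 784, Cidec at rank 813 and Pparg at rank 13972. Nearest to Lepr were Hist1h2be at 0.170, Rnf11, Ppp6r2, Fbxo3 and Ets1, with Fabp4 at rank 616. Around Plin1, a search added after the values were seen, Cidec stood at rank 2 (0.397), Cfd at rank 4 (0.458), Adipoq at rank 12 and Lep at rank 39. The other genes among the nearest 10 to Plin1 were, in order, Glb1l2, Tmem45b, Slc7a10, A530016L24Rik and Calml3, then Scd1, the desaturase of fatty acid synthesis, Thrsp, a regulator of lipogenesis, and Rbp4, a retinol carrier secreted by fat. Scd1 ranged from 49.9 CPM in No MM 4 to 1052 CPM in MM 6.

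Other genes of fat were read from the same fit, and none passed at an adjusted p under 0.05 by edgeR. Of 10 tested lipid droplet proteins, 0 were higher and 1 was lower in MM at an unadjusted p under 0.05, Plin3, a perilipin found in most cells, at a log2 fold change of −0.41 (SE 0.16, unadjusted p = 0.0228, edgeR adjusted p = 0.315). Of 11 genes of fatty acid uptake and carriage, 2 were lower at that threshold, Lmf1, which matures lipases, at −0.59 (SE 0.22, unadjusted p = 0.0225, edgeR adjusted p = 0.315), and Cd36, a fatty acid transporter, at −1.70 (SE 0.70, unadjusted p = 0.0336, edgeR adjusted p = 0.332). Cd36, like Pparg, was high in No MM 3 and No MM 4, at 1091 and 751.1 CPM against 61.0 to 213.6 elsewhere, and the fit without them put it at 0.13. In MM 8, where Pparg was next highest at 68.3 CPM, Cd36 was instead the lowest of the 10 libraries at 61.0 CPM. Without No MM 3 and No MM 4, edgeR put Plin3 at −0.39 (unadjusted p = 0.0465) and Lmf1 at −0.60 (unadjusted p = 0.0469). Over all tested genes, 10.3% were lower in MM at an unadjusted p under 0.05. Without those 2 libraries, 5.88% passed in either direction and 0% at an adjusted p under 0.05. The median log2 fold changes of these lists were −0.25 and −0.24, and −0.28 and −0.35 without No MM 3 and No MM 4.

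Of 14 adipogenic transcription factors, 9 genes of triglyceride breakdown and 13 of fatty acid and triglyceride synthesis, 0 in each had an unadjusted p under 0.05, with median log2 fold changes of 0.05, 0.15 and −0.03. Without No MM 3 and No MM 4 these medians were −0.03, −0.14 and −0.14. Cebpa, the partner of Pparg in adipocyte differentiation, was 48.4 ± 26.3 CPM in No MM and 65.5 ± 16.9 CPM in MM (SD, n = 5 each). It was lowest in No MM 3 and No MM 4, at 22.7 and 20.6 CPM, the libraries in which Pparg was highest. In MM 8, where Pparg was next highest at 68.3 CPM, Cebpa was instead the highest of the 10 libraries at 89.6 CPM. Of 12 other adipokines and receptors, 1 was lower at an unadjusted p under 0.05, the peptide gene Apln, whose level was 39.4 CPM in No MM 3 and at most 6.08 CPM in the other No MM libraries, and which had an unadjusted p of 0.0702 by edgeR without No MM 3 and No MM 4.

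Markers of other cells moved with some of the genes. In No MM 3 and No MM 4, where Pparg was highest and Adipoq lowest, the 9 plasma cell markers summed to 6295 and 5590 CPM against 542.8 to 1040 CPM elsewhere, and the 14 reticular stromal markers to 1151 and 1286 CPM against 2681 to 4448 CPM. Low sums there were not particular to stromal cells. Sums of osteoblast, osteoclast, neutrophil, erythroid, macrophage and B cell markers were also lowest in these libraries (osteoclasts 1069 and 1060 CPM, erythroid 987.5 and 3463 CPM). Sums of the markers used for white fat outside the marrow were lowest there too, at 43.9 and 38.3 CPM against 72.4 to 258.4 CPM elsewhere. Those of muscle, capillary endothelium and osteocytes were not lowest in both. All 9 plasma cell markers had a lower level in MM at an unadjusted p under 0.05 by edgeR, and 1 did without those libraries. Lepr was 50.9 and 59.0 CPM in these libraries, against 55.2 to 109.4 CPM elsewhere. The part of these cells in the Pparg and Adipoq values was not tested.

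In MM 8, where Lpl was highest and Pparg the highest of the MM group, the 11 macrophage markers summed to 2880 CPM, against 825.8 to 2628 CPM in the other libraries. Of these 11, 4 were highest of all libraries in MM 8 (C1qa, C1qb, C1qc and Marco), whereas 5 had there their lowest value of the MM group (Mrc1, Cd163, Vcam1, Mertk and Siglec1). C1qa, a complement gene of macrophages, was 605.5 CPM in MM 8 against 100.7 to 421.4 CPM elsewhere, and Siglec1, a sialic acid receptor of macrophages, was 15.8 CPM there against 22.9 to 64.3 CPM in the other MM libraries. Muscle markers, 11 in number, summed to 7741 CPM in No MM 2, 6760 CPM in MM 6 and 6081 CPM in No MM 1, the same 3 libraries in which Adipoq and Cfd were highest, and to 720.6 to 4246 CPM elsewhere. Plin1 and Cidec were not among their highest in No MM 1, at 5.56 CPM each, against 11.3 and 17.8 CPM in MM 9. The 10 markers used for white fat outside the marrow also had their highest sum in MM 6, at 258.4 CPM against 38.3 to 154.2 CPM. Of the sum in MM 6, Slc36a2 gave 111.7 CPM and Ghr 94.8 CPM. The next highest sum was in No MM 5, where Slc36a2 gave 83.7 CPM and Adipoq was 34.6 CPM, so the sum did not follow Adipoq there. Orm1 (7.19 CPM), Sncg (12.6 CPM) and Nnat (1.79 CPM) were not highest in MM 6. None of these 3 lists was tested for its part in the levels of the 10 genes.

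**Figure D5:**
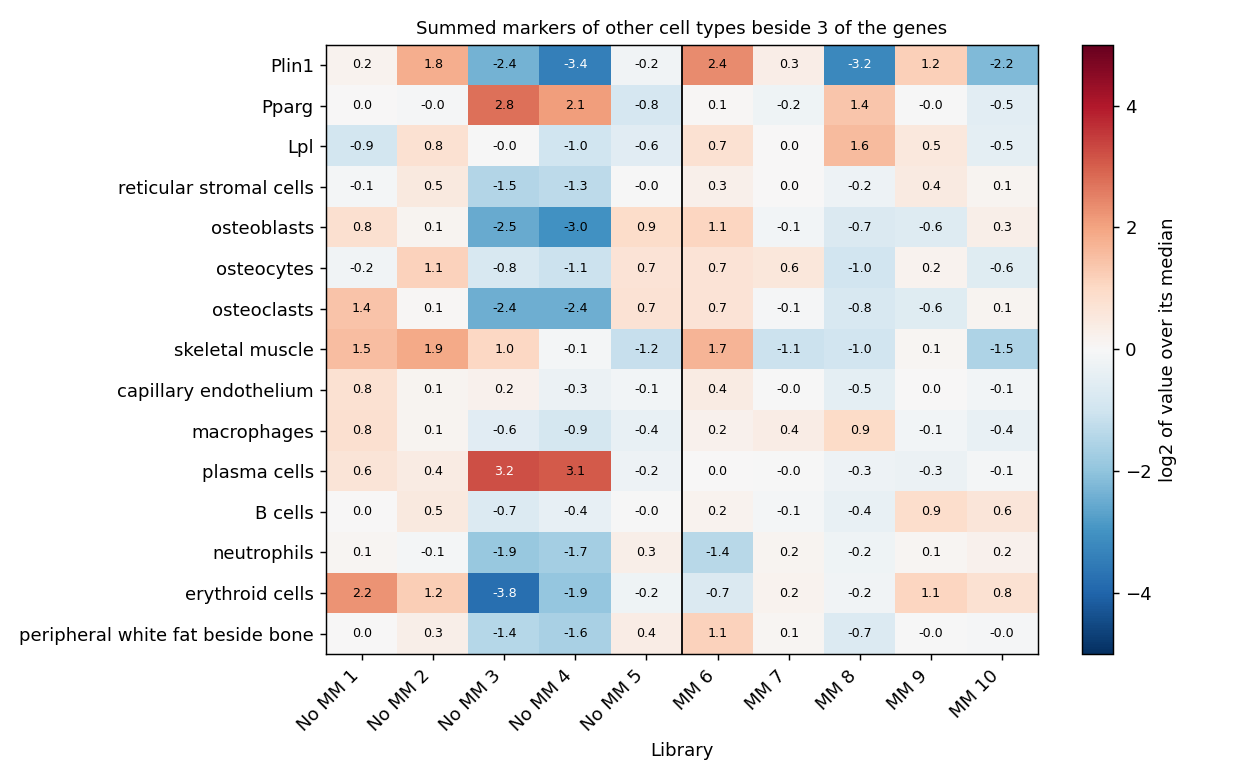
Log2 of the level of Plin1, Pparg and Lpl and of the summed CPM of 12 marker lists, each over its median of the 10 libraries. Plasma cell markers are high and osteoblast markers low in No MM 3 and No MM 4, muscle markers are high in No MM 1, No MM 2 and MM 6, and macrophage markers are highest in MM 8.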

How the data were processed

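Osteocyte fractions of 10 mice were sequenced as stranded total RNA (76-bp paired-end reads by the methods of the study). The authors deposited raw read counts per gene, which were used for every result. The submitters' processing notes name FastQC 0.11.5 and STAR, and the counting program, annotation and build are not given in the sources used here. The deposited normalised values (a signal), FPKM and group means, and the authors' own log2 fold changes and p-values, were not used. Counts were fitted in edgeR 4.0.16 (R 4.3.3; filterByExpr, TMM, quasi-likelihood test, 5 MM against 5 No MM, no covariate), with p-values adjusted over 16186 genes and standard errors taken as the log2 fold change over the square root of F. CPM used TMM library sizes, and log2 CPM a prior count of 2. The study names DESeq2, which was run as an alternative (1.42.0), and the code was tested on simulated data. Exact permutation tests ran over 252 assignments of mice, and correlations used 100000 resamples (scipy 1.17.1).

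Genes named in the text were the 10 members, up to 4 of each list with the smallest p, annotated neighbours sharing exons, and the 8 genes nearest Adipoq and 5 nearest Lepr; other genes named were chosen after their values were seen. The rule for the members uses gene names and no measured value, but they and the 20 other gene lists were chosen with earlier results of these data known. Library totals were 31099174 to 39466332 counts. Positions are those of the deposited table; all 10 members lay at overlapping positions on the same strand in GENCODE M21 (GRCm38), 6 of them identically.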

Additional observations from a re-analysis of the deposited data

Results flagged for a closer look

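Among 20 sets of 5 CPM values (10 genes in each group), 2 held a library whose gap to its nearest neighbour exceeded 0.71 of the group's range. That is the 95% limit for 5 normally distributed values, and chance would give about 1 such set if all sets were normal and independent. CPM was not log-transformed here and several of the genes moved together, so the flags are description only. Cfd in MM was 380.5 CPM in MM 6 against 6.81 to 103.7 CPM in the other 4 MM libraries, a gap of 0.741 of the range. On log2 CPM it was 8.57 in MM 6, then 6.70, 6.19, 3.73 and 2.78, so MM 6 did not stand apart. Pparg in MM was 68.3 CPM in MM 8 against 18.4 to 27.4 CPM, a gap of 0.821. On log2 CPM it was 6.10 in MM 8 against 4.21 to 4.78 in the other MM libraries, a gap just under 0.71 of the range. Cfd was 271.5 CPM in No MM 2, so its level in MM 6 was less far from the No MM values than from the other MM values. Pparg in MM 8 lay under the 114.0 and 178.3 CPM of No MM 4 and No MM 3.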

How the results depend on the processing

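No paired analysis was possible because the labels number the mice 1 to 10 and the groups share no replicate number. Over 18 alternatives, 161 of 179 fitted values of the 10 genes kept their direction, 18 turned, and 0 passed at an adjusted p under 0.05 (edgeR or DESeq2 adjusted p 0.206 to 0.999). Lep could not be fitted with at least 10 counts in every sample. Without No MM 3 and No MM 4 (edgeR, then DESeq2, the latter added after seeing the data), log2 fold changes turned to −0.27 and −0.27 for Adipoq, −0.053 and −0.057 for Plin1, −0.52 and −0.52 for Cfd, 0.52 and 0.55 for Pparg, −0.038 and −0.030 for Lepr, 0.13 and 0.13 for Cd36 and −0.15 and −0.16 for Scd1. Leaving out 1 mouse gave −0.11 to 1.20 for Adipoq, −0.27 to 1.65 for Plin1, −0.11 to 0.69 for Plin4, −1.06 to 0.91 for Cfd, −0.058 to 1.58 for Cidec, −0.67 to 1.38 for Scd1 and −1.03 to 1.07 for Retn. Each lowest value was without MM 6, and Cfd also turned without No MM 3, No MM 4 or No MM 5. At an unadjusted p under 0.05, 0 to 1 of the 10 genes passed without 1 mouse: Lpl without No MM 2 or MM 10, and Pparg without MM 8 or No MM 5. Over all genes, DESeq2 called 32 higher and 192 lower in MM where edgeR called 0 of each, and 2 and 2 without No MM 3 and No MM 4. Unadjusted, 617 were higher and 1664 lower by edgeR, 968 higher by DESeq2, and 560 (edgeR) and 640 (DESeq2) lower without those libraries. Without 1 mouse the counts ran from 291 to 1276 higher and from 939 to 2376 lower. The causes were not tested. With 5 mice a group, an interval as wide as that of Plin1 leaves large differences in either direction undetectable, and Lep rests on 2 to 146 counts.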

Other observations

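Among 8 genes of brown and beige fat, 2 were too scarce to test and 6 passed the filter on low counts. Ucp1, the uncoupling protein that defines brown fat, was at 0 in 3 No MM libraries and at most 0.969 CPM in No MM 3, and Elovl3 was at most 0.165 CPM. Cox8b, a cytochrome oxidase subunit of brown fat and muscle, was 3.46 to 40.6 CPM, and Tmem26, used as a beige fat marker, 6.24 to 19.9 CPM. Of the 6 tested, 0 had an unadjusted p under 0.05 by edgeR. Dio2, which activates thyroid hormone, was 7.18 ± 2.88 CPM in No MM and 11.1 ± 2.91 CPM in MM (SD, n = 5 each, edgeR unadjusted p = 0.0793, adjusted p = 0.401).

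Of 11 tested genes of preadipocytes or of factors that hold back adipogenesis, 2 were higher and 1 was lower in MM at an unadjusted p under 0.05 by edgeR, and 0 of the 3 at that threshold without No MM 3 and No MM 4. Gata2, a zinc finger factor, was 13.2 ± 4.77 CPM in No MM and 22.2 ± 7.85 CPM in MM (SD, n = 5 each, edgeR adjusted p = 0.334). Klf2 was 44.4 ± 17.5 and 70.1 ± 19.0 CPM (edgeR adjusted p = 0.349). Ly6a, the Sca-1 antigen of stromal and endothelial cells, was 193.3 ± 134 and 80.7 ± 51.6 CPM (edgeR adjusted p = 0.349). Of 14 reticular stromal genes, 13 had a higher mean level in MM, with a median log2 fold change of 0.36 that was 0.11 without No MM 3 and No MM 4. Among them Grem1, a BMP antagonist, had an unadjusted p of 0.0411 (edgeR adjusted p = 0.340), at a log2 fold change of 1.09 with a standard error of 0.47, and 0.66 without No MM 3 and No MM 4 (edgeR unadjusted p = 0.172).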
